A study of Mus musculus with 6 samples.

Results

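The transcription factor p53 can switch on genes that slow or halt cell division, or that lower growth signaling under stress, and 10 of them were followed through 6 RNA-seq libraries of mouse hematopoietic stem cells. They are Cdkn1a, Ccng1, Btg2, Gtse1, Psrc1, Plk2, Plk3, Zmat3, Sesn1 and Sesn2. These 10 of the 24110 genes in the deposited table were taken by symbol, all 10 were found, and all 10 passed the filter on low values. The list was put together with the scaled counts and KO over fl/fl fold changes of these same libraries known, and counts as selected on them, so its differences between the genotypes are a description and carry no p-value. The cells were sorted from bone marrow as CD150-positive, CD48-negative and Sca-1-positive cells without lineage markers, a gate for long-lived stem cells that renew the blood. One group, Prmt5 KO, came from mice in which the gene Prmt5 was deleted, and the other, Prmt5 fl/fl, from littermates with the floxed gene. Both groups were on the C57BL/6 strain, were matched for sex, and were sampled 7 days after induction. No source used here gives the Cre line, the inducing agent, the age of the mice, or whether fl/fl mice carried Cre or received the agent. Each group held 3 libraries, and each library pooled cells from 2 mice, so values describe pools and not single animals.

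Prmt5 encodes an arginine methyltransferase that modifies splicing proteins, histones and p53 itself. In unstressed cells p53 is kept low by the ubiquitin ligase Mdm2, and after DNA damage or other stress it accumulates and raises transcription of genes for arrest, repair, metabolism and death. The arrest branch includes p21, the product of Cdkn1a, which binds cyclin-dependent kinases, and the sestrins restrain the growth kinase complex mTORC1. In hematopoietic stem cells p53 and p21 are known for their part in quiescence and in the response to irradiation.

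P53 binds DNA at a pair of 10-base half-sites, and the promoters of 3 members held such a pair with at most 1 mismatch to the p53 consensus. Windows from 250 bases before to 50 bases after each RefSeq transcription start (GRCm38.p6) were searched, with 0 or 1 base allowed between half-sites. The consensus is its own reverse complement, so 1 search covered both strands. Of the 10 members 9 had at least 1 window, and Zmat3 had none. The 3 stretches of 80 bases are shown because they are the closest matches among the members. All 3 genes are past the limma threshold below, as are Plk2, with 5 mismatches, and Zmat3, without a window. Each is written 5′ to 3′ on the strand of the gene, and capitals mark the matched 20 bases.
Cdkn1a: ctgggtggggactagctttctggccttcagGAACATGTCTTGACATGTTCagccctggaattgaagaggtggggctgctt
Ccng1: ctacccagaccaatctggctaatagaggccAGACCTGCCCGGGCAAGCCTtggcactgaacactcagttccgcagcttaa
Gtse1: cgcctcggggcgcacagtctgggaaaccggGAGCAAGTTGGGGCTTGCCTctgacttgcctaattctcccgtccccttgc
The Cdkn1a match lies at chr17:29090928-29090947 on the plus strand, positions -51 to -32 from the start site, counting the start base as 1. That start is the upstream of 2 for the gene, and the centre of the match lies 2832 bases from the other start. For Ccng1 the match is at chr11:40755462-40755481 on the minus strand, positions -195 to -176. For Gtse1 it is at chr15:85859945-85859964 on the plus strand, positions -1 to 19. That start is the downstream of 2 for Gtse1, and the centre of the match lies 247 bases from the upstream start. The window of the upstream start had 6 mismatches at best. Among all 27025 symbols with a window, 57 (0.211%) held a match as close. Among 27 other p53 targets with a window there were 3, the cell death gene Bax, the DNA polymerase gene Polk and the ribosomal protein gene Rps27l. These 3 genes did not pass the threshold (limma, adjusted p = 0.0676, 0.202 and 0.0984). The best windows of Sesn1, Btg2, Psrc1, Plk2, Plk3 and Sesn2 had 3, 4, 4, 5, 5 and 5 mismatches. A match describes the letters of this window, and sites farther from the start were not searched.

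The libraries held 37834096 to 44704636 reads in genes, with all 3 KO totals below the 3 fl/fl totals, and values below are scaled to a total of 44704636. Prmt5 was at 1056, 1049 and 897 scaled counts in KO replicates 1 to 3, against 6076, 6024 and 6010 in fl/fl replicates 1 to 3, so every library matched its label. All 10 stem cell markers checked, among them Procr, Mecom and Hlf, were measured in every library. The 9 granulocyte and monocyte markers summed to 41860 to 406251 scaled counts in KO libraries and 26598 to 156359 in fl/fl libraries, with the highest sum in KO replicate 3. The 10 erythroid markers summed to 2140 to 2592 in KO and 3350 to 9746 in fl/fl, with Klf1 past the limma threshold and the globin genes Hba-a1 and Hbb-bt listed at 0 in all 6 libraries. The 10 megakaryocyte markers summed to 31040 to 58385 in KO and 69854 to 83686 in fl/fl, with Itga2b and Rab27b past the threshold. The 10 lymphocyte markers summed to 4047 to 5168 in KO and 4622 to 7228 in fl/fl, and 6 of them were highest in KO replicate 3. Most of that sum was 1 gene, Nkg7, at 3944.2 to 4968.6 in KO and 4442.5 to 7020.2 in fl/fl. The part of these other cell types in the results below was not tested, beyond the values given beside Btg2 and Plk3. In bulk RNA, fewer cells that make a transcript and less of it per cell cannot be told apart.

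Across the members, 5 rose in Prmt5 KO cells: Cdkn1a, Zmat3, Plk2, Gtse1 and Ccng1, with KO means 2.31 to 7.16 times the fl/fl means. For Psrc1, Plk3 and Sesn2 all KO libraries also lay above all fl/fl libraries without passing the threshold, and for Btg2 and Sesn1 the groups overlapped. The threshold was a Benjamini-Hochberg adjusted p of 0.05 over all 14113 genes tested by limma, which called 39 genes higher (0.276%) and 64 lower (0.453%). The groups lay apart with KO higher in 8 members, as they did in 8.3% of all genes tested. All 10 log2 fold changes were above 0, with a median of 1.32, beside a median of -0.048 over all genes tested, 44.8% of which were above 0. Since this contrast chose the list, nothing is read from these shares.

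EdgeR on the recovered read counts called 4 members higher, without Plk2, among 0.241% of all genes, and DESeq2 called 8, with Psrc1, Plk3 and Sesn2 added, among 2.59%. Calls hung on single libraries, among the members as over all genes tested. Limma called 0 members without KO replicate 1, KO replicate 3, fl/fl replicate 1 or fl/fl replicate 2. In these 4 fits limma called 1, 1, 4 and 4 genes higher over all genes tested. It called the same 5 without KO replicate 2, and those 5 with Psrc1 and Sesn2 without fl/fl replicate 3, which made 7. Over all genes tested the calls higher were 15 without KO replicate 2 and 120 without fl/fl replicate 3, against 39 with all libraries. The count over all genes thus fell without KO replicate 2 and grew without fl/fl replicate 3. In the 4 settings with 0 members called, 8, 7, 7 and 7 members were higher at an unadjusted p below 0.05. Of all genes tested, 389, 395, 768 and 634 were higher at that level. The groups stayed apart for 8 members in each of these settings. As the list was selected on this contrast, these counts are a description and support no call. The fold changes moved less than the calls. Without each library in turn the log2 fold change of Cdkn1a ran from 2.60 to 3.11 and that of Gtse1 from 1.37 to 1.59.

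**Figure D1:**
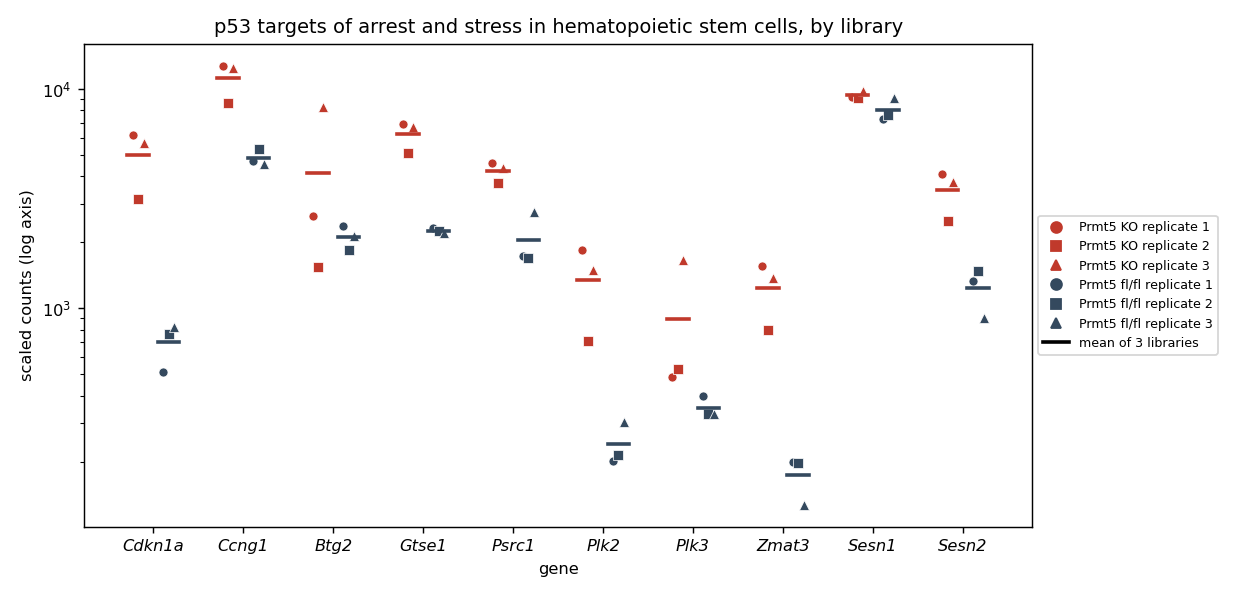
Scaled counts of the 10 members in each library (log axis), with Prmt5 KO in red left of Prmt5 fl/fl in dark blue, a marker shape for each replicate number and a line at each mean. Cdkn1a, Plk2 and Zmat3 show the widest gaps, Sesn1 shows overlapping groups, and KO replicate 3 stands alone for Btg2 and Plk3.

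Cdkn1a encodes p21, the inhibitor of cyclin-dependent kinases and the best known arrest gene of p53 (chromosome 17, 29090976 to 29100727, plus strand, GRCm38/mm10 with GENCODE M21). It was at 6182, 3140 and 5684 scaled counts in KO replicates 1 to 3, against 511, 764 and 822 in fl/fl replicates 1 to 3. The lowest KO library thus held more than any fl/fl library. The means were 5002 ± 1632 in KO and 699 ± 165 in fl/fl (SD, n = 3 each), which makes a log2 fold change of 2.81 ± 0.30 (SE). KO and fl/fl libraries that share a title prefix, whose meaning the labels do not state, differed by 3.59, 2.04 and 2.79 for replicates 1 to 3. In GENCODE M21 an unnamed gene model on the other strand, AC167363.2, shares 273 of 3553 exon bases with Cdkn1a. The deposited length of Cdkn1a is 2026 bases, so whether the shared bases were counted is not known. These libraries are not stranded, so any reads counted there cannot be told apart.

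Zmat3 encodes a zinc finger protein that binds RNA and acts in the p53 pathway on splicing and transcript stability (chromosome 3, 32334792 to 32366014, minus strand). It was at 1553, 800 and 1371 scaled counts in KO replicates 1 to 3, against 199, 197 and 127 in fl/fl replicates 1 to 3. All KO values lay above all fl/fl values by a wide margin. The means were 1241 ± 393 in KO and 174 ± 41.1 in fl/fl, a log2 fold change of 2.80 ± 0.31 (SE), and the same-prefix differences were 2.96, 2.02 and 3.42.

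The polo-like kinases take part in the cell cycle and in stress signaling, and Plk2, which acts on centriole duplication, rose (chromosome 13, 110395046 to 110400844, plus strand). Plk2 was at 1847, 709 and 1493 scaled counts in KO replicates 1 to 3, against 202, 214 and 303 in fl/fl replicates 1 to 3. The KO spread was wide, with replicate 2 lowest, but the groups did not overlap. The log2 fold change was 2.40 ± 0.37 (SE), and the same-prefix differences were 3.18, 1.72 and 2.30. Plk3, a stress-responsive relative, was at 487, 527 and 1666 in KO replicates 1 to 3, against 397, 331 and 329 in fl/fl replicates 1 to 3 (chromosome 4, 117128655 to 117133963, minus strand). Its groups lay apart, but KO replicates 1 and 2 were close to the fl/fl libraries and replicate 3 stood far above. The log2 fold change was 1.10 ± 0.45 (SE), and 0.53 without KO replicate 3. In GENCODE M21 Plk3 shares 84 of 2531 exon bases with Tctex1d4 on the other strand. The deposited length of Plk3 is 2367 bases, so whether the shared bases were counted is not known.

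Gtse1 and Psrc1 encode microtubule-binding proteins of dividing cells, and human GTSE1 also moves p53 out of the nucleus. Gtse1 (chromosome 15, 85859745 to 85876573, plus strand) was at 6940, 5094 and 6699 scaled counts in KO replicates 1 to 3, against 2326, 2248 and 2215 in fl/fl replicates 1 to 3. Its fl/fl libraries were the closest of any member, with a coefficient of variation of 2.51% beside a counting error of 2.13%. The log2 fold change was 1.45 ± 0.15 (SE), the smallest standard error among the 5 members that rose, with same-prefix differences of 1.58, 1.18 and 1.60. Psrc1 (chromosome 3, 108383839 to 108388231, plus strand) was at 4578, 3710 and 4353 in KO replicates 1 to 3, against 1733, 1689 and 2745 in fl/fl replicates 1 to 3. Its KO libraries were close to each other and above all fl/fl libraries, of which replicate 3 was high. The log2 fold change was 1.07 ± 0.21 (SE), and 1.29 without fl/fl replicate 3, where it passed the threshold.

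Ccng1 encodes cyclin G1, a p53-induced cyclin that recruits a phosphatase to Mdm2 (chromosome 11, 40748552 to 40755311, minus strand). It had the highest KO mean of the members, at 12746, 8636 and 12416 scaled counts in KO replicates 1 to 3, against 4715, 5348 and 4538 in fl/fl replicates 1 to 3. The groups lay apart, and KO replicate 2 was again nearest to fl/fl. The means were 11266 ± 2284 in KO and 4867 ± 426 in fl/fl, a log2 fold change of 1.19 ± 0.18 (SE), and the same-prefix differences were 1.44, 0.69 and 1.45.

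Btg2, an antiproliferative gene whose product binds the deadenylase complex that shortens mRNA tails, overlapped between the groups (chromosome 1, 134075170 to 134079120, minus strand). It was at 2636, 1551 and 8241 scaled counts in KO replicates 1 to 3, against 2366, 1838 and 2145 in fl/fl replicates 1 to 3. KO replicate 3 was high, replicate 1 was near the fl/fl libraries and replicate 2 was below them. The log2 fold change was 0.62 ± 0.54 (SE), and -0.058 without KO replicate 3, so its direction rested on that library.

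The sestrins bind the GATOR2 complex, a regulator of mTORC1, when amino acids are scarce or p53 is active, and Sesn2 is a leucine sensor. Sesn2 (chromosome 4, 132492032 to 132510501, minus strand) was at 4099, 2495 and 3767 scaled counts in KO replicates 1 to 3, against 1328, 1486 and 907 in fl/fl replicates 1 to 3. The groups lay apart without passing the threshold. The log2 fold change was 1.48 ± 0.26 (SE), as large as that of Gtse1, with a wider spread in fl/fl, and it passed the threshold without fl/fl replicate 3. Sesn1 (chromosome 10, 41809935 to 41908424, plus strand) was at 9166, 9071 and 9818 in KO replicates 1 to 3, against 7338, 7617 and 9146 in fl/fl replicates 1 to 3. Its fl/fl replicate 3 lay within the KO range. The means were 9351 ± 407 in KO and 8034 ± 973 in fl/fl, a log2 fold change of 0.23 ± 0.13 (SE), the smallest of the 10.

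**Figure D2:**
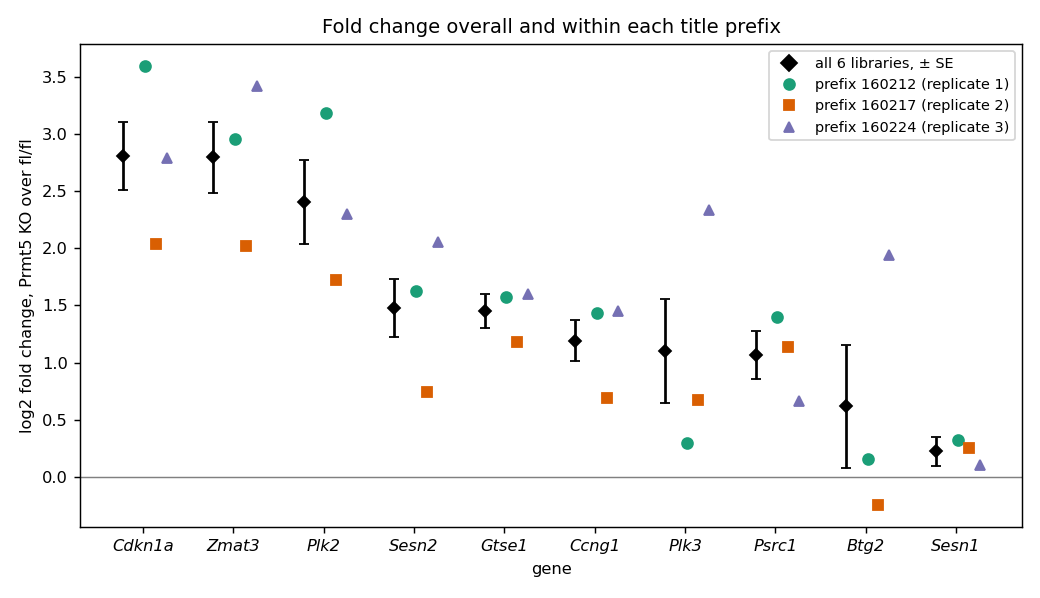
Log2 fold change of each member, Prmt5 KO over fl/fl: black diamonds with bars for all 6 libraries ± SE, and coloured markers for each same-prefix KO and fl/fl pair. Prefix 160217 gives the smallest value for 7 members, and for Btg2 it falls below 0 at -0.24.

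Most members shared the same lowest KO library, while the highest differed among them. KO replicate 2 was the lowest KO library for 9 of 10 members, the exception being Plk3, and for 65.7% of 35 other p53 targets, while it was lowest for 25.5% of all genes tested. KO replicate 1 was highest for 7 members and KO replicate 3 for Btg2, Plk3 and Sesn1. Taking each gene's log2 values centred on its own mean, the mean absolute distance over the 6 libraries was smallest between Ccng1 and Gtse1 at 0.129 and between Ccng1 and Sesn2 at 0.155. Plk2 and Zmat3 lay 0.234 and 0.244 from Cdkn1a, and Sesn1 lay farthest from it at 1.29. This distance spans both groups, so it includes the fold change on which the list was selected. It is not a measure of the KO libraries alone.

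By the same distance, the 5 genes outside the list nearest to Cdkn1a were Sulf2, Eda2r, Phlda3, Rbp2 and Fam212b, at 0.237, 0.239, 0.243, 0.267 and 0.311. Sulf2, a sulfatase of heparan sulfate, was at 1924, 1099 and 1846 scaled counts in KO replicates 1 to 3, against 223, 263 and 164 in fl/fl replicates 1 to 3. Rbp2, a retinol-binding protein, was near the detection limit at 15.0 to 34.3 in KO and 1.0 to 2.1 in fl/fl. Nearest to Gtse1 were Fam131a, Slc19a2, Tnfrsf10b, Egr1 and Pvt1, at 0.075, 0.080, 0.107, 0.107 and 0.108. Slc19a2, a thiamine transporter, was at 3281, 2655 and 3161 in KO replicates 1 to 3, against 1143, 1049 and 884 in fl/fl replicates 1 to 3.

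Btg2 and Plk3 were highest in KO replicate 3, as were 3 of the 9 granulocyte and monocyte markers. In that library the neutrophil calcium-binding protein genes S100a8 and S100a9 were at 153120 and 211090 scaled counts and the myeloid integrin gene Itgam at 13041. The other KO libraries held 12316 to 21757, 18171 to 28576 and 1109 to 1852, and the fl/fl libraries held 2096 to 31873, 2476 to 38708 and 419 to 2645. Of the 9 granulocyte and monocyte markers 3 were highest in KO replicate 3, namely these 3. Mpo, the myeloperoxidase of granule-forming precursors, was at 15944 in KO replicate 3, against 53564 in fl/fl replicate 1, where it was highest. Elane, Ctsg, Csf1r and Ms4a3 were likewise highest in fl/fl replicate 1, and Prtn3 in fl/fl replicate 3. The T cell genes Cd3e, Cd3d and Cd8a were also high in KO replicate 3, at 154, 123 and 87.4, against 0 to 14.2 in the other 5 libraries. The p53 target Gadd45a, a growth arrest gene, was at 324, 218 and 1297 in KO replicates 1 to 3, against 542, 523 and 602 in fl/fl replicates 1 to 3, likewise high in KO replicate 3 alone. The genes with profiles nearest to Btg2 and Plk3 were looked up after their values were seen. Those nearest to Btg2 were Ncf4, a subunit of the phagocyte oxidase, Gsn, Id2, Junb and Clec4d, at distances of 0.103 to 0.146. Those nearest to Plk3 were Tmem154, Zfp36, Nfkbid, Clec4d and Farp1, at 0.119 to 0.21. Without KO replicate 3 the log2 fold changes of Cdkn1a, Zmat3, Plk2, Gtse1 and Ccng1 were 2.68, 2.70, 2.27, 1.39 and 1.11. The sort for cells without lineage markers is meant to remove mature myeloid and T cells. The part of such cells in the values of Btg2 and Plk3 was not tested.

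**Figure D3:**
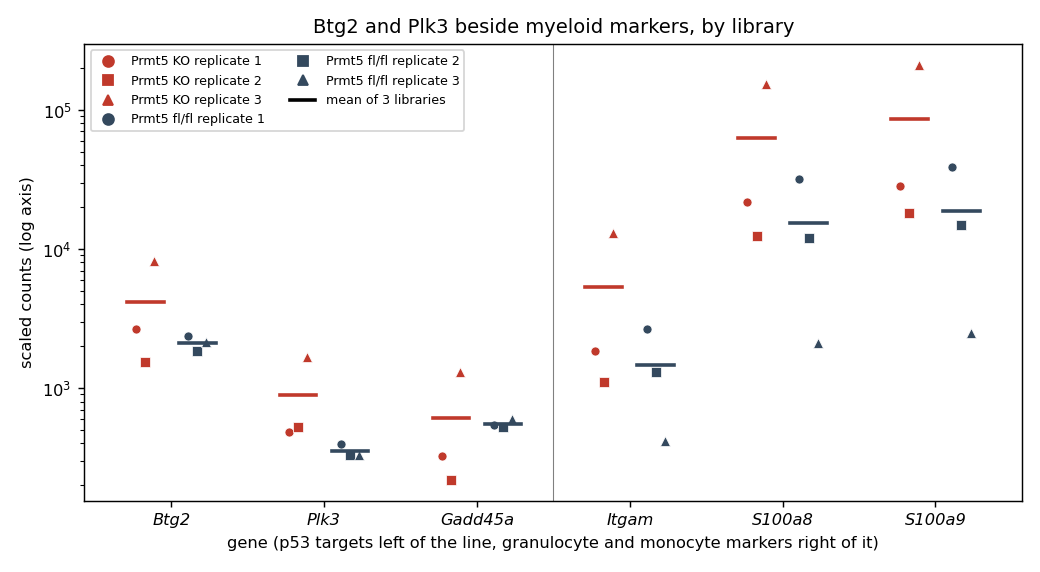
Scaled counts by library (log axis) of Btg2, Plk3 and Gadd45a, left of the line, and of the myeloid genes Itgam, S100a8 and S100a9, right of it, with Prmt5 KO left of Prmt5 fl/fl for each gene. KO replicate 3, the red triangle, is the highest library for all 6 genes. The myeloid genes shown are the 3 of 9 granulocyte and monocyte markers that were highest in that library.

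Levels of different genes were compared per kilobase of the deposited gene length. In KO cells Ccng1 led at 3231 ± 655 scaled counts per kb, followed by Sesn1, Cdkn1a, Psrc1, Gtse1, Btg2 and Sesn2, each overlapping the next in range. In fl/fl cells Sesn1 led at 2406 ± 291, above the overlapping Ccng1 and Psrc1, then Gtse1, Btg2, and the overlapping Sesn2 and Cdkn1a. Plk2, Plk3 and Zmat3 were the lowest 3 in both groups, with Zmat3 last at 160 ± 50.5 per kb in KO and 22.4 ± 5.28 in fl/fl. Among all genes tested, the per-kb level of Cdkn1a stood at percentile 78.1 to 89.5 in KO libraries and 37.9 to 51.1 in fl/fl libraries. The level of Zmat3 stood at 27.2 to 36.4 in KO and 11.1 to 13.8 in fl/fl, so it stayed below the median of tested genes in every library.

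The order of Cdkn1a and Cdkn1c, and of Ccng1 and Ccng2, differed between the groups, while the sestrins and the ZMAT genes kept 1 order of means in both. Cdkn1a stood above Cdkn1c, the p57 inhibitor that keeps stem cells quiescent, in every KO library and below it in every fl/fl library, with a per-kb ratio of 5.77, 1.86 and 5.19 in KO replicates 1 to 3, against 0.292, 0.427 and 0.376 in fl/fl replicates 1 to 3. Cdkn1c itself was at 1231 ± 334 scaled counts in KO and 1829 ± 231 in fl/fl. The per-kb ratio of Ccng1 to Ccng2, the gene of cyclin G2, was 4.06, 2.30 and 2.34 in KO replicates 1 to 3, against 0.917, 0.927 and 0.533 in fl/fl replicates 1 to 3. Sesn2 stayed below Sesn1 throughout, at 0.562, 0.346 and 0.483 of its per-kb level in KO replicates 1 to 3, against 0.228, 0.245 and 0.125 in fl/fl replicates 1 to 3. The per-kb ratio of Plk2 to Plk3 was 3.21, 1.14 and 0.758 in KO replicates 1 to 3, against 0.431, 0.546 and 0.777 in fl/fl replicates 1 to 3, so the groups overlapped. Plk2 stayed far below the mitotic kinase Plk1, which was at 2882 ± 98.0 per kb in KO and 2847 ± 613 in fl/fl. Plk2 was at 482 ± 208 per kb in KO and 85.6 ± 19.6 in fl/fl.

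The paralogs that are not members did not pass the threshold in either direction: of 19 listed 16 were tested, and limma called 0, with 1 higher and 3 lower at an unadjusted p below 0.05. EdgeR called 0, and DESeq2 called 1 higher and 1 lower. Of all 14113 genes tested, limma called 39 higher and 64 lower. At an unadjusted p below 0.05, 646 of all genes were higher and 1925 lower. The median log2 fold change of the 16 was -0.17, beside -0.048 for all genes. The largest values were -0.99 for Cdkn2c, the p18 inhibitor of CDK4 and CDK6 (limma, adjusted p = 0.0866), and 0.81 for Tob1, an antiproliferative relative of Btg2 (limma, adjusted p = 0.108). Cdkn1b, the p27 inhibitor, had -0.44, Cdkn2d -0.43, Ccni -0.12, Btg1 -0.15, Btg3 -0.16 and Tob2 0.10. Plk4, Zmat1, Zmat2, Zmat5 and Sesn3 had 0.022, -0.45, -0.19, -0.18 and 0.19. Cdkn2a, Cdkn2b and Zmat4 fell below the filter on low values.

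**Figure D4:**
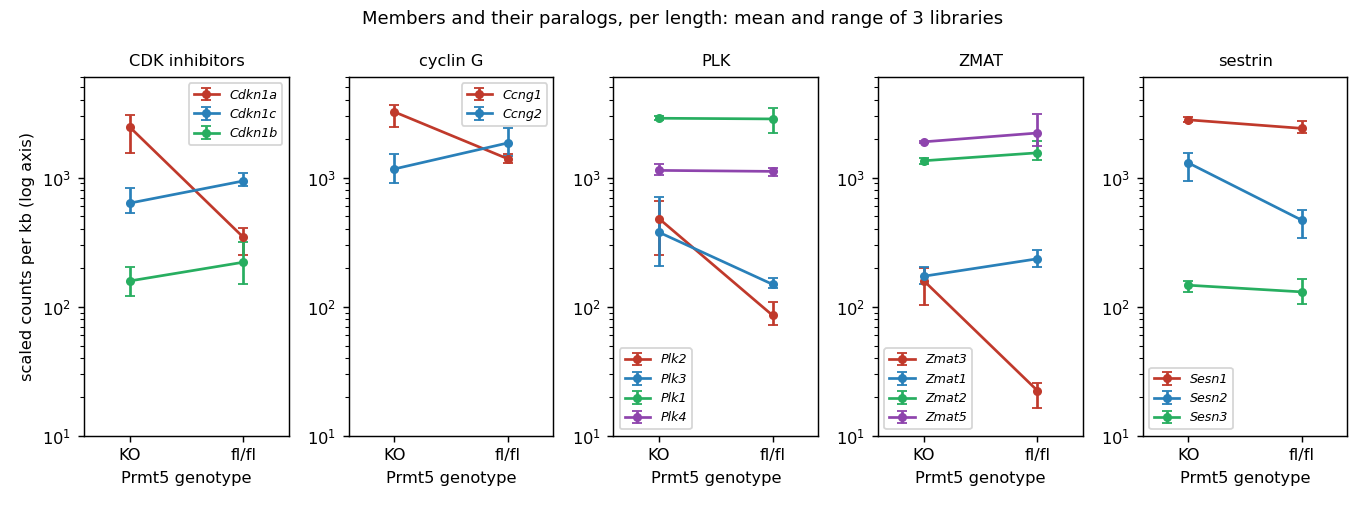
Mean and range over 3 libraries of scaled counts per kb (log axis) for members and paralogs in Prmt5 KO, left, and Prmt5 fl/fl, right. Cdkn1a and Ccng1 lie above Cdkn1c and Ccng2 in KO and below them in fl/fl, and Zmat3 reaches the level of Zmat1 in KO alone.

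Other p53 targets were divided by role, from a list of 37 of which 35 were tested. Like the other lists here, that list was chosen with earlier results of these data known. Its counts and p-values are thus a description. By limma 4 rose and 0 fell, with 16 higher and 2 lower at an unadjusted p below 0.05. Of all 14113 genes tested, 646 were higher and 1925 lower at that level. The median log2 fold change of the 35 was 0.54, and the groups lay apart with KO higher in 15 genes and lower in 3, as they did in 1171 and 2803 of all genes tested. Of 12 genes of cell death 3 rose: Phlda3, a repressor of AKT, Eda2r, the ectodysplasin A2 receptor, and Tnfrsf10b, the TRAIL receptor. Phlda3 was at 3214, 2106 and 2815 scaled counts in KO replicates 1 to 3, against 422, 499 and 420 in fl/fl replicates 1 to 3, a log2 fold of 2.58 (limma, adjusted p = 0.00564). The log2 fold was 3.06 for Eda2r (limma, adjusted p = 0.0195) and 1.60 for Tnfrsf10b (limma, adjusted p = 0.0429). Of 7 repair genes Ercc5, an endonuclease of nucleotide excision repair, rose by a log2 of 1.25 (limma, adjusted p = 0.0429). EdgeR called the same 4 and DESeq2 called 16 higher and 1 lower.

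No gene of the feedback, arrest or metabolism lists was called by limma. Unadjusted, 2 of 4 feedback, 1 of 5 arrest and 1 of 7 metabolism genes were higher at p below 0.05 and 1 metabolism gene lower, while edgeR called 0 and DESeq2 called 2, 1 and 1 higher and 1 lower. The largest fold changes there were 1.23 for Trp53inp1, a p53 cofactor (limma, adjusted p = 0.109), 3.05 for Gdf15, a stress cytokine (limma, adjusted p = 0.0556), and -1.06 for Fdxr, the ferredoxin reductase (limma, adjusted p = 0.0676). Fdxr was at 840, 915 and 586 scaled counts in KO replicates 1 to 3, against 1568, 1523 and 1727 in fl/fl replicates 1 to 3, so this p53 target lay lower in every KO library. Mdm2 was at 7104, 5228 and 6872 in KO replicates 1 to 3, against 4378, 5146 and 4025 in fl/fl replicates 1 to 3, and Trp53 averaged 17173 ± 1909 in KO and 14941 ± 1059 in fl/fl. Without KO replicates 1, 2 and 3 in turn limma called 0, 2 and 0 of the other targets, and without fl/fl replicates 1, 2 and 3 it called 1, 2 and 8. In the 2 settings with 0 calls, 12 and 13 were higher at an unadjusted p below 0.05, as were 389 and 395 of all genes tested. Among these 6 fits with a library left out, Phlda3 was called in all but those without KO replicate 1 or 3.

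Of the genes whose products p21 acts on, Ccnd1 rose. The 11 measured include Cdk2, Cdk4, Cdk6, the D, E and A cyclins and the replication clamp Pcna, and limma, edgeR and DESeq2 called 1 higher and 0 lower. Ccnd1, cyclin D1, was at 1986, 1892 and 2399 scaled counts in KO replicates 1 to 3, against 884, 790 and 952 in fl/fl replicates 1 to 3, a log2 fold change of 1.25 ± 0.16 (SE; limma, adjusted p = 0.0304). This call was lost without each library other than fl/fl replicate 3, at an adjusted p of up to 0.185 by limma, with the log2 fold change between 1.15 and 1.32. Cdk6 was the 1 gene lower at an unadjusted p below 0.05, with a log2 fold of -0.62 (limma, adjusted p = 0.113), and Cdk4 was at 28032 in KO and 29325 in fl/fl on average. The 8 genes of the GATOR complexes are 5 of GATOR2, which the sestrins bind, and 3 of GATOR1, which GATOR2 restrains. Of these limma called 0, edgeR 0 and DESeq2 1 higher, and 1 was higher and 1 lower at an unadjusted p below 0.05. The groups lay apart with KO higher in 2 of the 8 and lower in 2. Over all 14113 genes tested, limma called 39 higher and 64 lower, edgeR 34 and 26, and DESeq2 365 and 616. Unadjusted, 646 were higher and 1925 lower, and the groups lay apart in 1171 and 2803.

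Gtse1 and Psrc1 are genes of the G2 and M phases by role, and 24 other G2/M genes were set beside them. Limma, edgeR and DESeq2 called 0 of the 24, 0 had an unadjusted p below 0.05, and the groups lay apart for 0 of them. Limma called 0.276% of all genes tested higher and 0.453% lower, so 0 calls among 24 lies near that share. Of all 14113 genes tested, 646 were higher and 1925 lower at an unadjusted p below 0.05. The groups lay apart in 1171 genes with KO higher and in 2803 with KO lower. The log2 fold changes of the 24 genes ran from -0.31 to 0.34 with a median of -0.025, while those of Gtse1 and Psrc1 were 1.45 and 1.07. The summed scaled counts of the 24 were 188607 to 199441 in KO libraries and 177689 to 216624 in fl/fl libraries. Of 22 G1/S genes limma, edgeR and DESeq2 also called 0, with 0 at an unadjusted p below 0.05 and a median of 0.066. In the promoters, the cell cycle genes homology region, read as TTTGAA or TTTAAA on either strand, was in 17 of 19 G2/M genes with a window (89.5%), in 2 of 9 members (Gtse1 and Plk2) and in 30.6% of all symbols. The form TTTGAA alone was in 14 of the 19 G2/M genes, in 0 of the 9 members and in 20.2% of all symbols.

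**Figure D5:**
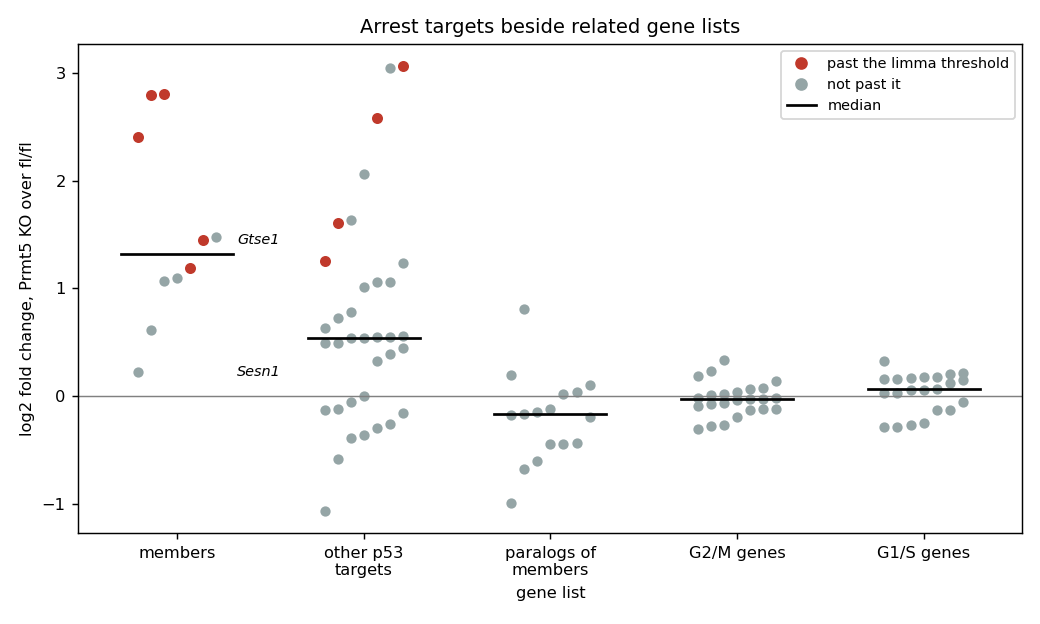
Log2 fold change, Prmt5 KO over fl/fl, of every tested gene in the member list and in 4 related lists, with red for genes past the limma threshold, grey for others and a line at each median. The members spread from 0.23 for Sesn1 to 2.81 for Cdkn1a, while the G2/M genes stay between -0.31 and 0.34.

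Counting error was small beside the spread of libraries for most members. Reads per library ran from 120 for Zmat3 to 10787 for Ccng1. The relative counting error was taken from the mean reads of the 3 libraries of a group. It ran from 1.01% for Ccng1 in KO to 7.64% for Zmat3 in fl/fl, and is larger for a library with fewer reads than that mean. The coefficients of variation of the KO libraries ran from 4.35% for Sesn1 to 86.7% for Btg2, and in fl/fl they ran from 2.51% for Gtse1 to 29.1% for Psrc1. The counting errors are a lower bound on technical error, since the amplified reads carry no molecular identifiers.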

How the data were processed

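RNA from sorted stem cells was amplified with SMART-Seq v4 and prepared with Nextera XT, per the labels' protocols. Per the submitters' processing notes, STAR aligned the reads to mm10 and featureCounts counted them, and no version is given in the sources used here. The table that the authors deposited has 24110 genes. Its fl/fl replicate 2 column holds read counts. The other 5 deposited columns hold a scaled signal, each count multiplied by 44704636 over the library's total, and undoing this gave whole reads for 100% of values within 1e-06. The deposited gene length was used for levels per kb.

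The members and lists were chosen with earlier results of these data known. The 14113 genes averaging 10 or more scaled counts were tested as log2(value + 1), which understates low genes, with limma's moderated test with trend, two-sided, adjusted by Benjamini-Hochberg over all of them at 0.05. Software was limma 3.58.1, edgeR 4.0.16, DESeq2 1.42.0, R 4.3.3 and Python 3.11.15. The fits were tested on simulated data. No library was a copy of another (chi-square over degrees of freedom, 26.2 to 357). Alternatives were another pseudocount, filters, scalings, edgeR and DESeq2 on recovered reads, a replicate block and leaving out each library.

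The text names all members, their paralogs, other p53 targets past the threshold and the largest change of each such list. It also names cell cycle genes past the threshold, Prmt5, Trp53, the gate genes Ly6a, Cd48 and Slamf1, and Kit, which is not in the gate above. The 5 nearest profiles to Cdkn1a and to Gtse1 are named as well. Genes named beyond these were chosen after their values were seen. Ly6a, Cd48, Slamf1 and Kit did not pass the threshold: 0 of 4 by limma, edgeR and DESeq2, and 0 at an unadjusted p below 0.05. Coordinates are from GENCODE M21, promoter sequences from RefSeq GRCm38.p6.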

Additional observations from a re-analysis of the deposited data

How the results depend on the processing

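Of 140 fold changes of the 10 members under 14 alternative settings, 105 kept their direction and side of the threshold, 29 lost the call, 5 gained it, and 1 changed sign, Btg2 at -0.058 without Prmt5 KO replicate 3. Over all genes limma called 39 higher and 64 lower. The count lower was 38 with no filter on low values, 22 with median-of-ratios size factors (35 higher), 32 with TMM factors (35 higher) and 26 with edgeR (34 higher). DESeq2 gave 365 higher and 616 lower, with 8 members and 16 other p53 targets higher. These scalings moved the median of all folds by at most 0.087.

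With the replicate block the calls were 1 higher and 0 lower over all genes, 0 members and 0 other p53 targets. At an unadjusted p below 0.05, 8 members and 14 other p53 targets were higher, as were 504 of all 14113 genes tested. The lists were selected with these data known, so these counts support no call. The fit has 2 residual degrees of freedom. The correlations of deviations between same-numbered libraries were -0.14, 0.068 and -0.26, so the numbers were not taken to pair the libraries, although mice were matched by litter. Not every library correlated best with its own number, the highest value being 0.347 for KO replicate 3 with fl/fl replicate 1.

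Leaving out each replicate in turn gave 1 to 120 genes higher and 2 to 257 lower, 0 to 7 members and 0 to 8 other p53 targets, and a log2 fold change of Btg2 from -0.058 to 1.15. Counting error of the members, 1.01% to 7.64%, is a lower bound on the technical error at this depth. The cause of the lost calls was not tested.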
